A study of Mus musculus with 1 sample.

Results

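The cells described here were 63 Lyz2+ myeloid cells from the pancreas of 2-week-old Scap f/f mice, picked by their transcripts as macrophages. They made up 0.576% (exact 95% binomial interval 0.443 to 0.736) of 10947 barcodes kept, out of 11789 barcodes in the count matrix. A kept barcode had more than 800 and fewer than 100000 UMIs (unique molecular identifiers, each standing for 1 captured transcript) and under 15% mitochondrial UMIs. A cell was then taken when 7 genes (C1qa, C1qb, C1qc, Mrc1, Pf4, F13a1 and Lyz2) had at least 5 UMIs together and Fcer1g or Tyrobp had a UMI, with at most 1 UMI of Cd3d, Cd3e, Cd79a and Cd79b, fewer than 5 of S100a8 and S100a9, and none of Mki67 or Top2a. Of 115 kept barcodes that met the first condition, 105 met the second, 97 also passed the T and B cell limit, 77 the S100a8 and S100a9 limit and 63 the cell cycle limit.

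The study asked how loss of SCAP, the sterol-sensing escort of the SREBP transcription factors, affects the pancreas, and the library analysed here was its normal reference. The Scap gene of these Scap f/f mice was intact, because no Cre acted on its floxed alleles. Per the study's methods, the pancreata of 5 to 6 mice, males and females in equal number, were pooled, digested with collagenase P and depleted of dead cells before droplet capture and 3′ sequencing. There was therefore 1 library and no replicate: every interval below covers counting error only, no p-value is given, and differences between mice cannot be seen.

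Macrophages are phagocytes that clear dying cells and debris and sense tissue damage. Some settle in a tissue before birth and maintain themselves there, while others arise from circulating monocytes that enter through the chemokine receptor CCR2. C1q, the first component of the classical complement pathway, is made mainly by macrophages, the mannose receptor MRC1 and the chemokine PF4 mark many tissue-resident ones, and lysozyme (Lyz2) is shared by monocytes, macrophages and granulocytes. LYVE1, FOLR2, CD163 and TIMD4 are surface proteins of long-lived resident macrophages, and MHC class II molecules present antigen to CD4 T cells.

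The genes of the rule lie at several places in the genome (GRCm38). C1qa, C1qb and C1qc stand side by side on the minus strand of chromosome 4, at chr4:136895917-136898803, chr4:136880129-136886187 and chr4:136889804-136893065. Pf4 lies at chr5:90772435-90773383 and Mrc1 at chr2:14229392-14332057, both on the plus strand, and Lyz2 at chr10:117277331-117282321 on the minus strand. SPI1 (PU.1), the transcription factor needed for all myeloid lineages, recognises DNA around a GAGGAA core. This core was searched on both strands (GAGGAA, or TTCCTC on the other strand, which cannot overlap each other) from 250 bases before to 50 bases after the RefSeq start of each gene, in the GRCm38.p6 promoter table. Of the 8 genes looked up, C1qb, C1qc, Mrc1, Pf4, Lyz2, Fcer1g, C1qa and Tyrobp, the first 6 were found in the table, and 4 of these 6 windows held the core, as did 28.3% of all 32851 windows of that length. A match describes the letters and is not a measured binding site. For each of these 4, the stretch with the match nearest the start is shown, and Mrc1 held 3 matches in all. C1qb, C1qc, Mrc1 and Pf4 are shown because they are the rule genes whose windows held the core. Each is a run of 30 bases before the start that the table gives, which can differ from the outer end of the gene, 5′ to 3′ on the gene's strand, with the core or its complement in capitals.
C1qb, minus strand, chr4:136886213-136886242: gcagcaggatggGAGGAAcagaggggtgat
C1qc, minus strand, chr4:136893090-136893119: gacggcagacacTTCCTCattttggcacac
Mrc1, plus strand, chr2:14229367-14229396: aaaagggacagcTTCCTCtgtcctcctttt
Pf4, plus strand, chr5:90772405-90772434: tgtcattgcttctgcagagcacTTCCTCat
The windows of Lyz2 and Fcer1g held no such run of letters.

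The 63 cells held 206156 UMIs of the library's 51540177. Each had between 900 and 11466 UMIs (median 2789) and a median of 1417 detected genes, and the median mitochondrial share was 1.88%. Their depth was close to that of the other 10884 kept barcodes (median 2649 UMIs). The 7 rule genes, which chose the cells and are given as a description, summed to between 5 and 134 UMIs per cell (median 19). Just inside the limit, 3 cells had 5 rule UMIs and 2 cells had 6, and none of these had a UMI of Csf1r, the receptor for the macrophage growth factor CSF1. Just outside, 6 barcodes that met all other conditions had 4 rule UMIs, 3 of them with Csf1r, and 5 barcodes had 3 rule UMIs, 1 of them with Csf1r.

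The macrophage label held only in part. Lyz2 was present in all 63 cells, with between 1 and 50 UMIs (median 13), 56 cells passed the limit on Lyz2 alone, and 23 cells had no UMI of any of the other 6 rule genes. C1q, the gene family most restricted to macrophages in the rule, had 2 or more UMIs in 17 cells (27.0%, 16.6 to 39.7), 1 UMI in 2 cells and 0 in 44. Among markers that the rule did not use, Csf1r had 75 UMIs in 33 cells (52.4%, up to 13 per cell) and Adgre1, the F4/80 antigen, 38 UMIs in 22 cells (34.9%). In fibroblasts of the library, which should lack both and had a similar median depth (2669 UMIs), 1.38% of barcodes had a Csf1r UMI and 0.0359% an Adgre1 UMI. After each cell was thinned to 800 UMIs, Csf1r was left in 22.2% of the Lyz2+ cells and 0.216% of fibroblasts, and Adgre1 in 14.3% and 0%. Ccr2, the receptor of recruited monocytes, was found in more cells than either, with 113 UMIs in 37 of 63 (58.7%, against 0.0898% of fibroblasts). After thinning, Ccr2 was left in 31.7% of the Lyz2+ cells and 0.0539% of fibroblasts. The cells are therefore called Lyz2+ cells here.

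Markers of T cells, B cells, neutrophils and mast cells were few, while RNA of acinar cells and fibroblasts, given further on, was common. Ptprc, the pan-leukocyte antigen CD45, was detected in 48 cells. The T cell list had 7 UMIs in 6 cells with Cd3e at 0, the B cell list 6 UMIs in 6 cells with Ms4a1 at 0, and the neutrophil list 11 UMIs in 10 cells with Retnlg and Cxcr2 at 0, although Cd3, Cd79 and S100a8/9 genes had been limited by the rule. All 4 mast cell genes were at 0 UMIs, which allows up to 14.6 CPM at 3 counts (CPM, counts per 1000000 UMIs of the cells summed). The 12 dendritic cell genes had 101 UMIs in 27 cells. Flt3, the growth factor receptor of that lineage, and Xcr1 had 0 UMIs, Wdfy4 had 15 UMIs in 14 cells and Epsti1 47 UMIs in 17 cells, while 10 of the 12 Ccr7 UMIs and 17 of the 19 Fscn1 UMIs came from 1 cell each. Against the other kept barcodes, 3 of the 5 dendritic genes tested (mean of at least 10 CPM) were at least 2-fold higher (Epsti1, Wdfy4 and Ccr7) and 1 at least 2-fold lower (Zbtb46), beside 18.8% and 21.8% of all genes tested. Of 6 genes of large peritoneal macrophages, Gata6, Prg4 and Alox15 were at 0, Selp had 9 UMIs in 1 cell, Icam2 had 5 UMIs in 5 cells and Garnl3 had 2 UMIs in 2 cells.

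The 63 cells fell into 4 combinations of C1q and MHC class II. MHC class II UMIs (H2-Aa, H2-Ab1, H2-Eb1 and Cd74 summed) were either 4 or fewer or 10 or more in each cell, and no cell lay between. With C1q-high meaning at least 2 C1q UMIs and MHC II-high at least 10 MHC class II UMIs, there were 10 C1q-high MHC II-low cells, 7 C1q-high MHC II-high cells, 27 C1q-low MHC II-low cells and 19 C1q-low MHC II-high cells. These combinations are ranges of counts, drawn after the values had been seen, and not cell types. Their median depths were 3064, 5461, 1950 and 3537 UMIs, so a low gene had the least chance of detection in the C1q-low MHC II-low cells.

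**Figure D1:**
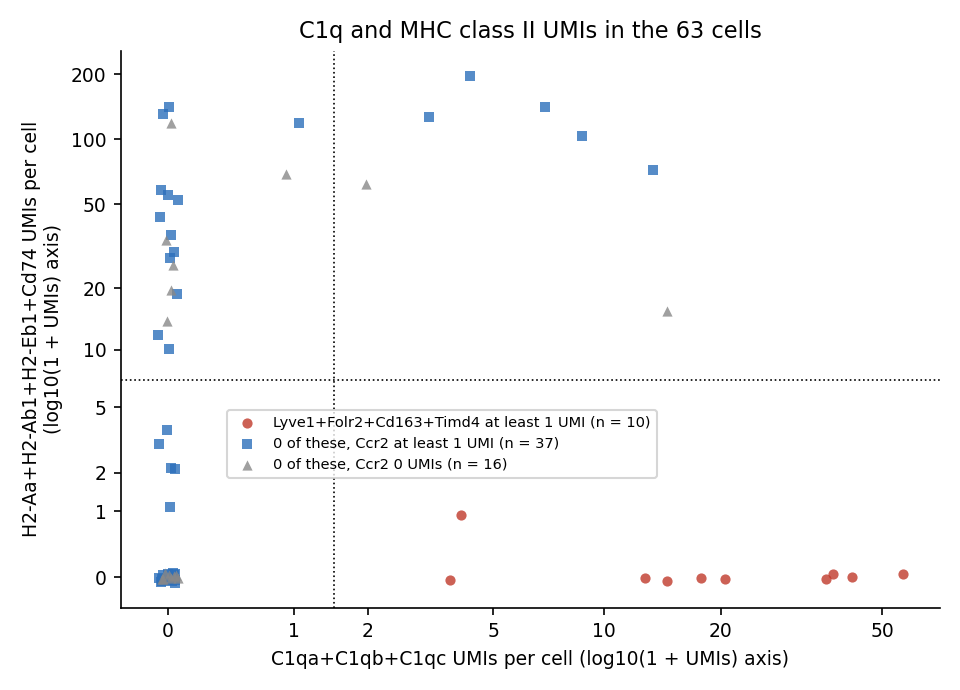
UMIs of C1qa, C1qb and C1qc (x) against UMIs of H2-Aa, H2-Ab1, H2-Eb1 and Cd74 (y) in each of the 63 cells, both axes log10(1 + UMIs) with small jitter, dotted lines at the limits of the 4 combinations. The 10 cells with a UMI of Lyve1, Folr2, Cd163 or Timd4 (circles) lie at the lower right, the 37 cells with Ccr2 and none of these (squares) lie elsewhere, and 16 cells had neither (triangles).

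**Figure D2:**
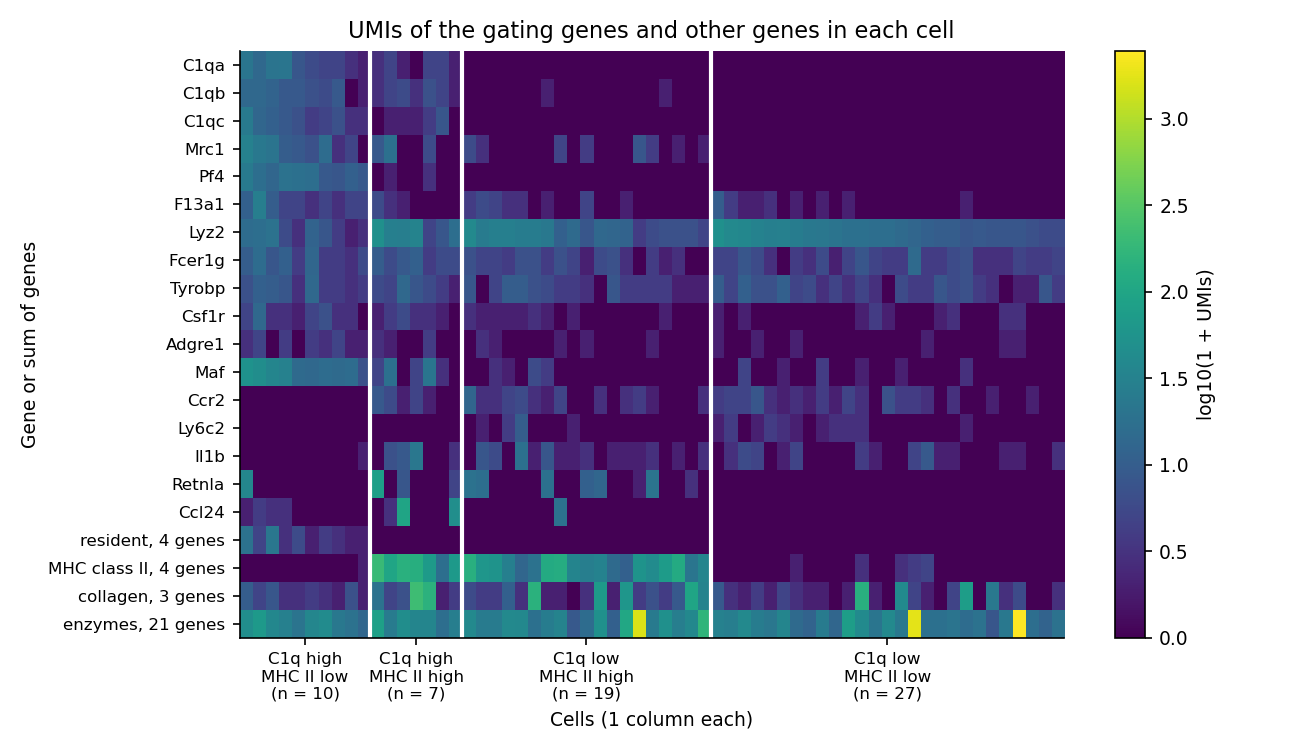
UMIs on a log10(1 + UMIs) colour scale for the rule genes, other markers and summed lists (rows) in each cell (columns), grouped by the 4 combinations. Pf4, Maf and the sum of the 4 resident genes are present in all 10 C1q-high MHC II-low cells. Ccr2 is empty there, and enzyme UMIs are brightest in 3 C1q-low cells.

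Resident macrophage transcripts and high counts of MHC class II transcripts were found in different cells. Lyve1, Folr2, Cd163 and Timd4 together had 58 UMIs, all of them in 10 cells, and these 10 cells were the same as the 10 C1q-high MHC II-low cells. Those cells held 1 MHC class II UMI among them (28.5 CPM, 0.722 to 159), in a cell with 1 resident UMI, while the other 53 cells held 1742 (10181 CPM, 9709 to 10671). Of the 63 cells, 26 had at least 10 MHC class II UMIs and no resident UMI, 10 had a resident UMI and fewer than 10 MHC class II UMIs, 27 had neither and 0 had both. In the 7 cells with at least 2 resident UMIs, the MHC class II genes had 0 of 27136 UMIs, which allows up to 111 CPM at 3 counts. At a median of 2789 UMIs, a low level of either group in a single cell was not detectable.

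The 10 C1q-high MHC II-low cells had the highest sum of the macrophage identity list, whose genes lie outside the selection rule. Its 20 genes summed to 12922 CPM (11760 to 14169), against 6000, 4196 and 2616 CPM in the C1q-high MHC II-high, C1q-low MHC II-low and C1q-low MHC II-high cells. As a description of how these cells were chosen, C1q had between 4 and 56 UMIs per cell (median 19.5), and Pf4, a chemokine of platelets and resident macrophages that is also a rule gene, was found in 10 of 10 cells with a median of 14 UMIs and 3851 CPM. Pf4 was at 75.6 CPM (3 UMIs) in the C1q-high MHC II-high cells and at 0 in the 46 C1q-low cells. Maf, a transcription factor of mature macrophages, had 239 UMIs in 10 of 10 cells (6818 CPM), against 1185, 179 and 171 CPM in the C1q-high MHC II-high, C1q-low MHC II-low and C1q-low MHC II-high cells. Maf was also at 791 CPM in fibroblasts.

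The lysosome list (21 genes) and the lipid handling list (20 genes) also had their highest sums in these 10 cells, though single genes differed in direction. The lysosome list was at 18513 CPM (17116 to 19994), against 10487, 8213 and 8673 CPM in the other combinations in the same order, and the lipid handling list at 15946 CPM (14651 to 17324), against 5168, 4969 and 3706 CPM. Of the 559 UMIs of the lipid handling list in the 10 cells, 364 were from Apoe alone. Apoe, a lipid carrier, was found in 10 of 10 cells with a median of 31.5 UMIs and 10383 CPM, against 1109, 684 and 436 CPM in the other combinations. Selenop, a secreted selenium carrier, stood at 3423 CPM against 454, 208 and 125 CPM, and Dab2, an endocytic adaptor, at 3309 CPM against 731, 74.4 and 125 CPM. The intervals of these 3 genes in the 10 cells did not overlap those in any other combination. Among scavenger receptors, Mrc1, a rule gene, was at 3280 CPM in 9 cells, Stab1 at 884 CPM in 9 cells and Cd36 at 1797 CPM in 9 cells. Among lysosomal proteases, Ctsb was at 3081 CPM against 479, 699 and 358 CPM, and Lgmn at 1198 CPM against 353, 134 and 109 CPM. Psap, the precursor of lysosomal lipid-degrading cofactors, had its lowest level here, at 941 CPM (648 to 1322) against 2496, 1875 and 2445 CPM. Ctss, the protease that trims the MHC class II invariant chain, was at 314 CPM (157 to 561) against 756, 640 and 545 CPM, with intervals that overlapped.

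Several genes had all or nearly all of their UMIs in these 10 cells. Trem2, a lipid-sensing receptor, had 9 UMIs in 5 of the 10 cells and 0 in the other 53. Fcna, a ficolin, had 24 UMIs in 4 cells, and Agmo, an ether lipid monooxygenase, 21 UMIs in 7 cells, both with 0 UMIs elsewhere. Igf1, a growth factor, had 18 UMIs in 8 cells and 3 UMIs in the rest, and Gas6, the bridging ligand for uptake of apoptotic cells, 13 UMIs in 7 cells and 1 in the rest. Others were shared with further cells. C5ar1, the receptor for the complement fragment C5a, had 24 of its 42 UMIs in 9 of the 10 cells (685 CPM), and the rest in 10 other cells. Ccl12, a monocyte-attracting chemokine, had 20 of its 35 UMIs in 7 of the 10 cells and 15 in 1 C1q-high MHC II-high cell.

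The same 10 cells had almost no transcripts of the monocyte list. Its 12 genes had 1 UMI among 35056 (28.5 CPM, 0.722 to 159), a UMI of Fn1, against 3681, 5550 and 4251 CPM in the C1q-high MHC II-high, C1q-low MHC II-low and C1q-low MHC II-high cells. Ccr2 and Plac8 were at 0 UMIs, and Il1b, an inflammatory cytokine, had 1 UMI. Fn1, which fibroblasts of the library also held (1573 CPM), gave most UMIs of the list in both MHC II-high groups. Collagen UMIs (Col1a1, Col1a2 and Col3a1) were also lowest in these 10 cells, at 1055 CPM against 10109, 4791 and 7101 CPM in the other groups. Among those other groups, the collagen order was the reverse of that of the whole monocyte list. That list sums 12 genes, so its order does not describe Fn1 alone. The part of this collagen-bearing RNA in the Fn1 levels was not tested.

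The 7 C1q-high MHC II-high cells had less C1q than the 10 cells above, the highest MHC class II level and the highest chemokine sum. Their C1q ranged from 2 to 15 UMIs per cell (median 7) and their MHC class II from 16 to 201 UMIs (median 99, 18302 CPM). Ccr2 was found in 5 of the 7 (479 CPM, 288 to 748), none had a UMI of the 4 resident genes, and Dab2 was present in all 7. The 15 chemokine genes summed to 10336 CPM, against 3708, 1190 and 3021 CPM in the C1q-high MHC II-low, C1q-low MHC II-low and C1q-low MHC II-high cells. This rested on few cells. Ccl24, an eosinophil attractant, had 144 UMIs in 3 cells, of which 96 and 46 came from 2 of them. Retnla, a secreted protein of alternatively activated macrophages, had 92 UMIs in 3 of the 7 cells, 81 of them in 1 cell. In 2 other cells of the 7, collagen UMIs reached 152 and 217, and the part of collagen-bearing RNA in these levels was not tested.

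The 27 C1q-low MHC II-low cells were the largest group and had the highest sum of the monocyte list (5550 CPM, 5001 to 6142). Plac8, a gene of circulating monocytes and lymphocytes, was found in 27 of 27 cells with a median of 4 UMIs and 2023 CPM (1698 to 2393), against 0, 479 and 623 CPM in the C1q-high MHC II-low, C1q-high MHC II-high and C1q-low MHC II-high cells. Cebpb, a transcription factor of inflammatory myeloid cells, was also found in 27 of 27 and stood at 2842 CPM against 342, 983 and 1261 CPM. Lyz2 was at 7008 CPM (6389 to 7670), but cells without the other rule genes could enter only with at least 5 Lyz2 UMIs, so the choice of cells sets this level in part. Ccr2 was found in 19 of the 27 cells (774 CPM) and Ly6c2, the marker of classical monocytes, in 11 (283 CPM), beside 4 C1q-low MHC II-high cells and none of the 17 C1q-high cells. Gpr141 (536 CPM in 14 cells), Msrb1 (625 CPM in 20 cells) and Sirpb1c (283 CPM in 13 cells) also had their highest levels here. Mrc1, Retnla, Ccl24, Ccl7 and Ccl12 had 0 UMIs, which allows up to 44.6 CPM at 3 counts. Chil3, another gene of blood monocytes, had 1 UMI in the 63 cells.

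The 19 C1q-low MHC II-high cells had MHC class II at 15634 CPM (14682 to 16632), between 10 and 137 UMIs per cell with a median of 34. H2-DMb1, which loads peptides on MHC class II, was found in 14 of them (545 CPM), and Ciita, the master activator of these genes, in 8 (156 CPM). Ccl9 was at its highest here (654 CPM in 13 cells), as were Id2 (592 CPM in 9 cells, of which 17 of 38 UMIs were from 1 cell) and Ear2 (420 CPM in 8 cells). Retnla was found in 8 of these cells with up to 19 UMIs (1479 CPM), Mrc1 in 8 (405 CPM) and Ccr2 in 13 (654 CPM). Cd209a, a gene of monocyte-derived dendritic cells, had 2 UMIs in 1 cell.

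**Figure D3:**
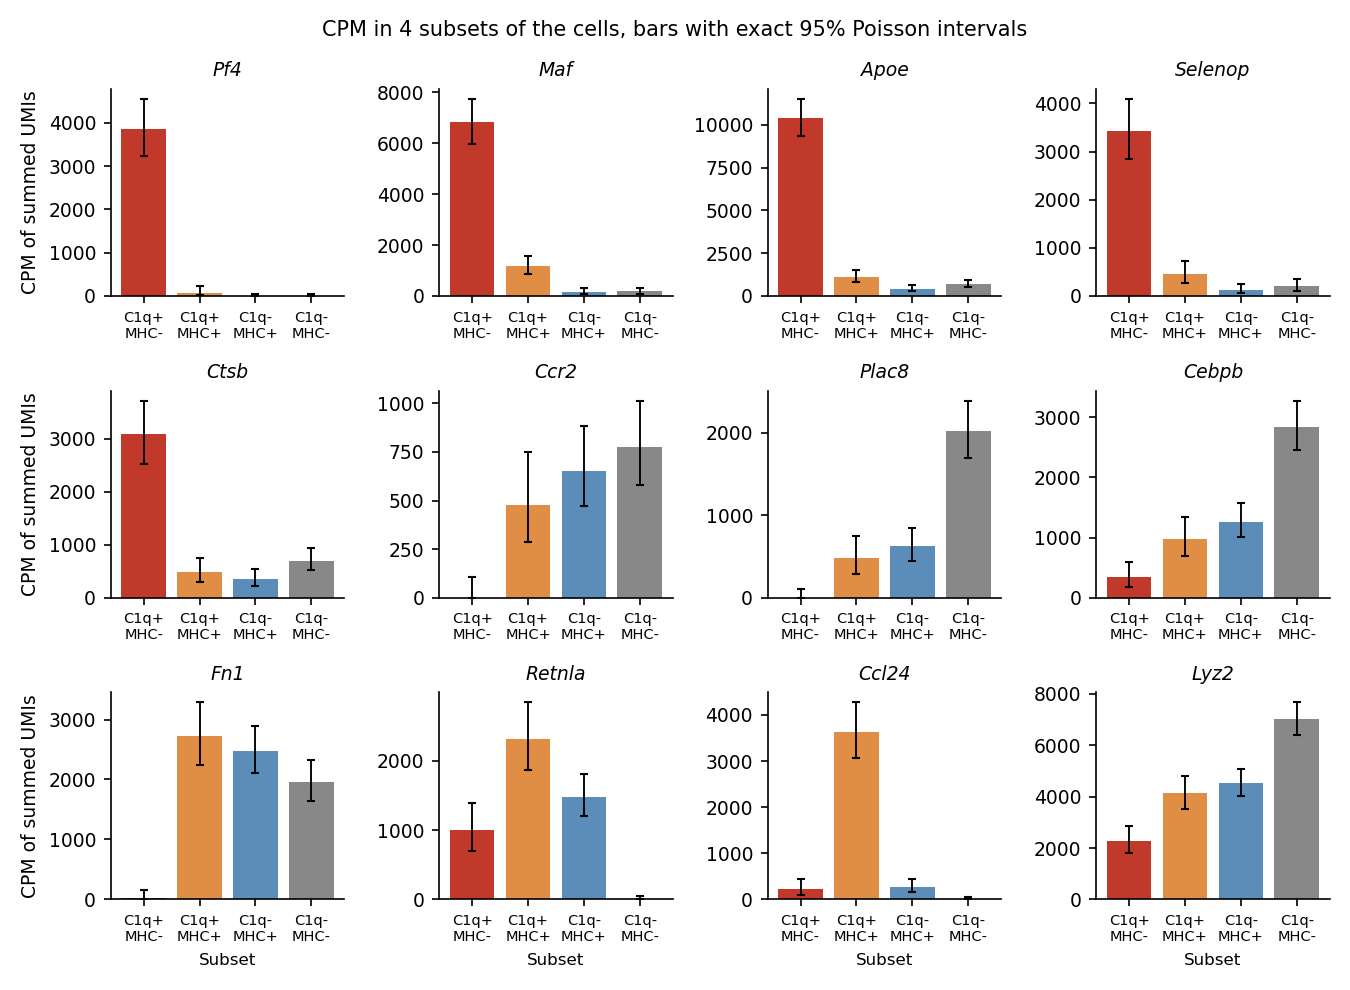
CPM of summed UMIs for 12 genes in the 4 combinations (C1q+ for C1q-high, MHC+ for MHC II-high), with exact 95% Poisson intervals that cover counting error only; each panel has its own linear axis from 0. Pf4, Maf, Apoe, Selenop and Ctsb peak in the C1q+ MHC- cells, Plac8, Cebpb and the rule gene Lyz2 in the C1q- MHC- cells, and Ccl24 in the C1q+ MHC+ cells, where 2 cells gave 96 and 46 of 144 UMIs.

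Splits of the cells on 1 measure at a time gave the sizes of these differences. In the 17 C1q-high cells against the other 46, Maf was 21.9-fold higher (14.3 to 35.1) and Dab2 19.6-fold higher (11.1 to 37.7). Pf4 (138 UMIs against 0) was at least 64.9-fold higher and Lyve1 (25 UMIs against 0) at least 11.1-fold higher. Where a side had 0 UMIs, the lower end of the interval is given. On the other side, Ly6c2 (33 UMIs in 15 cells against 0) was at least 4.81-fold higher in the C1q-low cells. Digestive enzyme genes also led that side, among them Ctrb1, chymotrypsinogen, at 8.33-fold (6.95 to 10.1). Enzyme RNA, the product of acinar cells, was present in all 63 cells and 3 C1q-low cells held 1579, 1813 and 2473 enzyme UMIs, so enzyme UMIs were 5.47% of the total in C1q-low and 0.792% in C1q-high cells. Fabp4, a fatty acid carrier, had 54 of its 61 UMIs in 1 C1q-low cell.

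The 7 cells with at least 2 resident UMIs differed from the 53 with none in more than MHC class II. Cd74, the MHC class II invariant chain, was at least 30.6-fold lower (0 against 714 UMIs). S100a4, a calcium-binding protein of motile cells, had 214 UMIs in 47 of the 53 cells and 0 in the 7, and so was at least 9.12-fold lower. Plac8, with 195 UMIs in 39 cells and 0 in the 7, was at least 8.30-fold lower. Tmsb10, an actin-sequestering peptide found in all 53 cells (3945 CPM), had 3 UMIs in the 7 cells (111 CPM), so that it was 35.7-fold higher (12.2 to 173) without resident UMIs. Gpr34, a lysophospholipid receptor, had 10 UMIs in 4 of the 7 cells and none in the 53. The 53 cells also held more collagen RNA (6891 against 995 CPM) and more enzyme RNA (4.36% against 0.966% of UMIs) than the 7. Fn1 (399 UMIs against 1) and H19 (136 UMIs in 22 cells against 0) were higher in the 53 as well. The part of RNA from other cells in these differences was not tested.

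Divided at their median MHC class II level (370 CPM), 31 cells above and 32 at or below it differed by H2-DMb1, which was 34.3-fold higher above the median (5.84 to 1388, 1 UMI on the lower side), and by Malt1, a lymphocyte signalling protease, 12.1-fold higher (5.36 to 33.9). Icam1 was 13.6-fold higher (4.39 to 68.0), but 35 of its 51 UMIs were from 1 cell, and 22 of 24 Ndnf UMIs were also from 1 cell. Below the median, Apoe was 4.91-fold higher (3.92 to 6.19), with 364 of its 482 UMIs in the 10 C1q-high MHC II-low cells, 9 of which lay at or below the median, and Adgre4, a receptor of the F4/80 family, 12.9-fold higher (4.04 to 66.1).

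As a sum over all cells of a class, MHC class II was higher in the Lyz2+ cells than in 2 classes known to present antigen, beyond counting error. The 4 genes summed to 8455 CPM (8062 to 8861) in the 63 cells, against 6393 CPM (6203 to 6587) in 279 B cells, 4203 CPM (3909 to 4513) in 36 mature dendritic cells and 75.0 CPM (71.1 to 79.0) in 5567 fibroblasts. The distribution differed. A UMI of these genes was found in 32 of the 63 cells (50.8%), but in 96.8% of B cells. All of the dendritic cells had such a UMI, since 5 of them were part of the definition. The median Lyz2+ cell held 1 such UMI (0 to 201), against 14 in B cells (0 to 55) and 14 in dendritic cells (5 to 93). Deep cells weigh more in the sum, and B cells were shallower (median 1668 against 2789 UMIs). A mean over cells was not compared between these classes. In the cells above the median level alone, the sum was 15190 CPM (14485 to 15921).

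Set against all other kept barcodes, 20 of 20 macrophage identity genes were at least 2-fold higher in the Lyz2+ cells, a threshold that 18.8% of all 9302 genes with a mean of at least 10 CPM passed upward and 21.8% downward. Csf1r was 80.7-fold higher (61.2 to 105), Adgre1 205-fold (129 to 324), Itgam, the integrin CD11b, 159-fold (115 to 219), Cx3cr1, the fractalkine receptor, 36.1-fold (25.1 to 50.7) and Fcgr1, a high-affinity antibody receptor, 290-fold (109 to 793). The list's median log2 ratio was 5.59, with 1 CPM added to both sides, and that of all genes tested was 0.03. Since the cells were chosen on myeloid transcripts of the same library, this describes the choice and is not independent evidence. The transcription factor Spi1 was found in 43 cells (378 CPM) and was 73.3-fold higher (56.1 to 94.8).

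**Figure D4:**
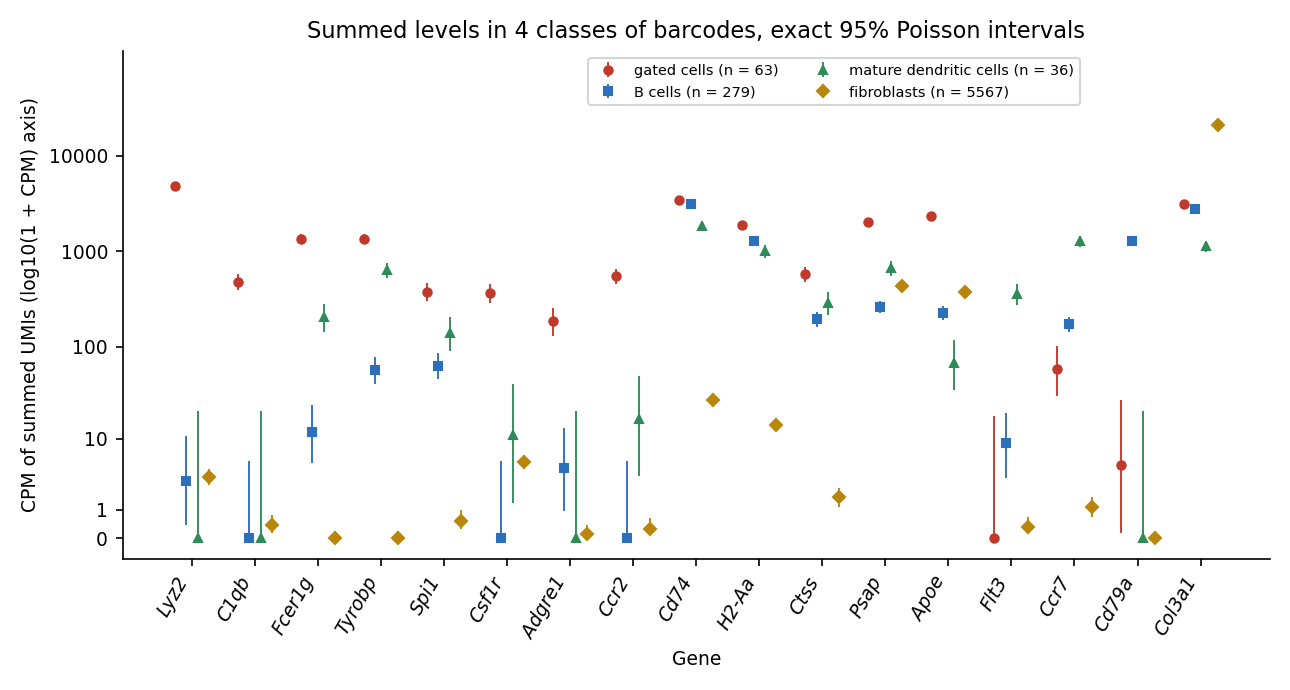
CPM of summed UMIs (log10(1 + CPM) axis) of 17 genes in the Lyz2+ cells ("gated cells"), B cells, mature dendritic cells and fibroblasts of the library, with exact 95% Poisson intervals for counting error. Lyz2, C1qb, Csf1r, Adgre1 and Ccr2 are high in the Lyz2+ cells alone, Cd74 and H2-Aa are far above the fibroblast level in the 3 immune classes, and Col3a1 is present in all 4.

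Functional groups other than identity differed in how many genes were higher than in the other barcodes, and their counts stand beside the 18.8% of all genes that were higher and 21.8% that were lower. Of 21 lysosome genes, all tested, 16 were at least 2-fold higher and 2 lower (Ctsk and Ctsl), led by Ctss (40.8-fold, 33.3 to 49.6), Ctsc (31.7-fold, 26.8 to 37.3) and Laptm5 (16.8-fold, 13.9 to 20.2). Of 14 pattern recognition genes tested, 13 were higher and 0 lower. They included Cd14 (120-fold, 89.6 to 161), the co-receptor for bacterial lipopolysaccharide, Clec4n (502-fold, 216 to 1259), Nlrp3 (119-fold, 64.7 to 211), the sensor of an inflammasome, and Tlr7 (79.2-fold, 40.0 to 148). Cybb, the catalytic subunit of the phagocyte oxidase, was found in 55 cells and was 75.7-fold higher (63.4 to 90.0). Of 14 complement and Fc receptor genes tested, which hold the rule gene Fcer1g, 11 were higher and 3 lower: the receptors C3ar1 (252-fold, 122 to 520), C5ar1 (204-fold, 132 to 314) and Fcgr3 (161-fold, 105 to 245) were among the former, and C2, C3 and Cd93 were the latter. Of 15 genes tested for uptake of apoptotic cells, 6 were higher and 3 lower, and the median log2 ratio of the whole list was -0.12, with Mertk at 4.37-fold (2.38 to 7.37) and its relative Axl at 0.497 (0.289 to 0.796).

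Outside the rule and among genes of at least 100 CPM in the 63 cells, the 20 with the strongest lower bound are given here. Ccl12 was at 170 CPM against 3 UMIs in all other barcodes (2773-fold, 874 to 14091), Ccl24 at 825 CPM (918-fold, 656 to 1310) and Retnla at 1077 CPM (754-fold, 574 to 1001). All 3 were uneven: Ccl12 and Ccl24 were found in 8 cells each and Retnla in 12, and without the highest cell Ccl24 fell to 370 CPM and Retnla to 724 CPM. Mmp12, a macrophage elastase, had all of its 21 UMIs in 1 cell. More widespread were the inhibitory receptor Lilrb4a in 40 cells (297-fold, 209 to 424), the lectin Clec4a3 in 30 cells (475-fold, 289 to 802), the chemokine Ccl9 in 27 cells (256-fold, 180 to 364), Clec4a1 in 27 cells (238-fold, 153 to 369), Wfdc17 in 26 cells (206-fold, 146 to 291) and the chemokine receptor Ccr1 in 23 cells (342-fold, 200 to 595). Fcrls, Sirpb1b, Sirpb1c, Fcna, Gpr141, Tnip3, Klra2, C5ar1, Cd300c2 and Il1b completed the 20.

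Among secreted signals, Il1b was found in 33 cells with up to 21 UMIs (606 CPM, 505 to 722). Osm, a cytokine of the interleukin-6 family, had 26 UMIs in 12 cells (126 CPM), Tgfb1 42 UMIs in 27 cells (204 CPM) and Tnf 4 UMIs in 3 cells. Il10 had 0 UMIs, as did Nos2, the inducible nitric oxide synthase. Ccl6 was the most widespread chemokine, in 48 of 63 cells (708 CPM, 598 to 833). Ccl2, the ligand of CCR2, was found in 21 cells (417 CPM, 334 to 515), and Ccl4 in 11 (640 CPM), with 60 of its 132 UMIs in 1 cell. Ccl8, Cxcl9 and Cxcl13 were at 0.

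Lipid handling genes were raised in part, and the genes of the SCAP and SREBP pathway were scarce. Of 18 lipid handling genes tested, 13 were at least 2-fold higher than in the other barcodes and 1 lower, Spp1, osteopontin, at 0.115 (0.0498 to 0.227). Lgals3, galectin-3, was 27.7-fold higher (23.2 to 32.9), Cd36 11.5-fold (9.66 to 13.7), Plin2, a lipid droplet coat protein, 9.44-fold (6.79 to 12.8) and Apoe 7.70-fold (7.02 to 8.43). Of 16 SCAP and SREBP pathway genes, 3 were higher and 6 lower, with a median log2 ratio of -0.38; all 16 were tested, and over all genes 18.8% were higher and 21.8% lower. The share of higher genes was that of all genes, and the share of lower genes was larger. Scap itself had 13 UMIs in 10 cells (63.1 CPM, 33.6 to 108), with at most 2 per cell, against 29.1 CPM in the other barcodes (2.17-fold, 1.15 to 3.72). Insig1, the sterol-dependent anchor of SCAP, was 2.08-fold higher (1.18 to 3.38). Both genes lay just over the 2-fold limit with intervals that held 2, so the count of 3 higher genes is not firm. Enzyme UMIs, 13.5% of those of the other barcodes and 3.78% of those of the Lyz2+ cells, also enter the denominators of these ratios. Srebf2 was seen as 1 UMI in each of 15 cells, and Srebf1 had 4 UMIs. Of the lipid synthesis enzymes, Scd2 was at 0.228 of the level in the other barcodes (0.0985 to 0.450), while for Fasn (0.419, 0.0863 to 1.23) and Acaca (0.521, 0.169 to 1.22) the interval held 1. In the 10 C1q-high MHC II-low cells, the whole pathway had 15 UMIs, too few to compare the combinations.

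**Figure D5:**
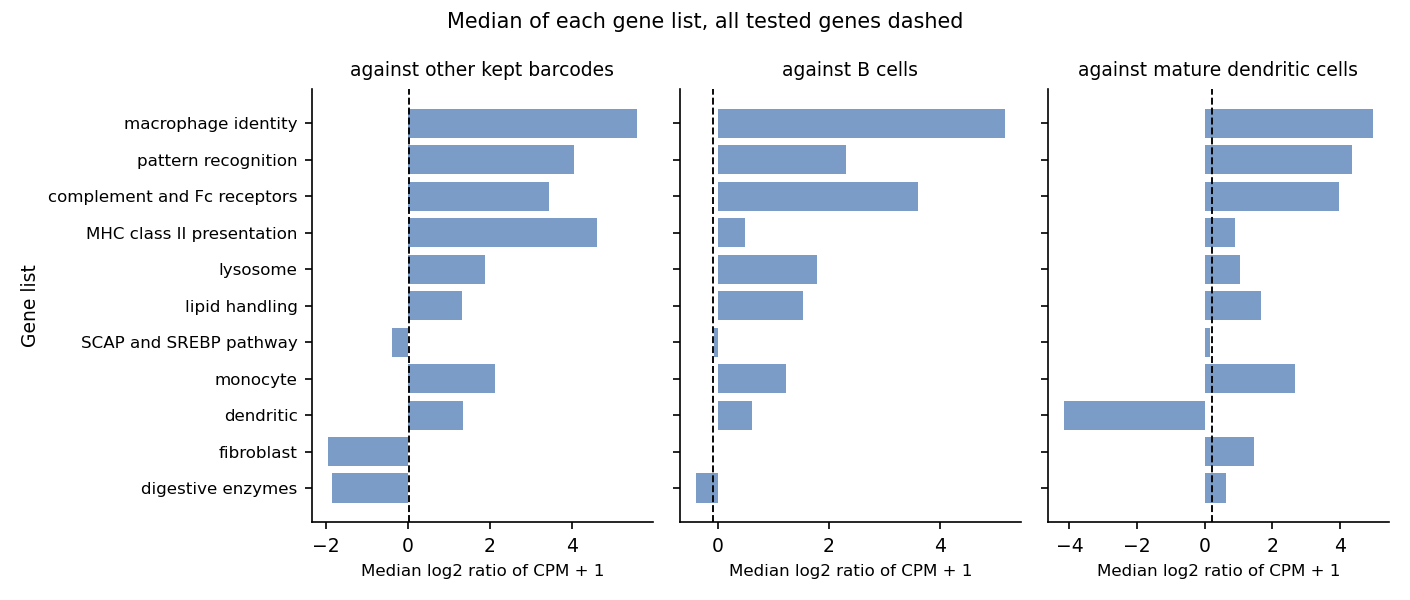
Median log2 ratio (1 CPM added to both sides) of the genes of 11 lists in the Lyz2+ cells against other kept barcodes, B cells and mature dendritic cells, with the median of all genes tested as a dashed line. Identity, complement and pattern recognition lists lie far to the right in all 3 panels, the dendritic list lies to the left against dendritic cells, and the SCAP and SREBP list lies close to the dashed line.

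The Lyz2+ cells were also compared with B cells (at least 3 UMIs of Cd79a and Cd79b, median depth 1668 UMIs). Of 9110 genes tested, 17.2% were at least 2-fold higher in the Lyz2+ cells and 19.5% lower. Of 14 genes of MHC class II presentation, all tested, 3 were higher and 3 lower, close to the shares of all genes. The former were Ctss (2.97-fold, 2.30 to 3.84), H2-DMb1 (6.22-fold, 3.67 to 10.8) and the co-stimulatory ligand Cd80 (47.1-fold, 11.9 to 408, 29 UMIs in 16 cells against 2 UMIs), and the latter were H2-Oa and H2-Ob, the brakes on peptide loading that B cells make, and Cd40, with 0, 1 and 0 UMIs in the Lyz2+ cells. All 14 pattern recognition genes tested were higher. Lyz2, which chose the cells, was at 4875 CPM against 2.99 CPM. Ccl6 stood at 708 CPM against 1.49 CPM (1 UMI). Ccr2, Retnla and Ccl24 were at 0 in B cells and so at least 97.9-fold, 194-fold and 148-fold higher. Immunoglobulin genes led the other direction, with Igkc at 4.85 CPM (1 UMI) in the Lyz2+ cells against 3103 CPM, and Iglc2, Iglc1, Iglc3, Ms4a1 and Pax5 at 0. Enzyme RNA did not set these classes apart, since 0 of the 20 enzyme genes tested passed the threshold in either direction.

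Against the mature dendritic cells (at least 4 UMIs of Fscn1, Ccr7 and Ccl22, median depth 4108 UMIs), 30.0% of 8693 genes were at least 2-fold higher in the Lyz2+ cells and 19.9% lower. Of 10 dendritic genes tested, 0 were higher and 8 lower, in part because Ccr7, Fscn1 and Ccl22 defined the dendritic cells. Ccl5, a T cell attractant, was at 199 CPM against 25196 CPM, and 32 of its 41 UMIs were from 1 of the 63 cells. Epsti1 was at 228 CPM against 6465 CPM, and Flt3, Ly75, an endocytic lectin, Kazn, Adam23, H2-M2 and Tnfrsf4 were at 0. Id2 was at 0.152 (0.111 to 0.204) and Irf8 at 0.0882 (0.0457 to 0.156) of the dendritic level, while Cebpb was 40.4-fold higher (19.4 to 101). In the Lyz2+ direction, the 10 most raised genes were Lyz2, Retnla, Mrc1, Ccl24, Pf4, Il1b, F13a1, C1qb, C1qc and Ccl2, each at 0 in the dendritic cells, of which 6 were rule genes. Il1b was at least 36.5-fold higher and Ccl2 at least 25.1-fold. Of 15 immediate early and heat shock genes tested, 13 were at least 2-fold higher than in dendritic cells, beside 30.0% of all genes. Against B cells 11 were higher, beside 17.2% of all genes, and against all other barcodes 4, beside 18.8%. Among these, Dusp1, a phosphatase induced by stress, was at 3269 CPM against 610 CPM in dendritic cells, 252 CPM in B cells and 625 CPM in the other barcodes, and Fos at 4448 CPM against 715, 1328 and 3250 CPM. Such genes also respond to tissue digestion, whose part here was not tested.

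RNA of other pancreatic cells was present in the Lyz2+ cells. The 21 digestive enzyme genes had 7785 UMIs in the 63 cells, between 7 and 2473 per cell with a median of 26, and made up 3.78% of their UMIs against 13.5% in the other kept barcodes and 2.34% in fibroblasts. All 21 were at least 2-fold lower than in the other barcodes, as were all 6 fibroblast genes and all 4 globin genes, beside 21.8% of all genes tested. Ctrb1 and Clps, colipase, were found in 62 and 63 cells and were among the 10 genes with the most UMIs, beside Tmsb4x, Actb, Rps29, Gm42418, Malat1, Lyz2, Rpl37a and Fau. Collagen UMIs reached 10 or more in 13 cells. Of the pooled sexes, 32 cells had a UMI of Xist, 16 of 1 of 4 Y-linked genes, 5 of both and 20 of neither.

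C1q transcripts were also counted outside the 63 cells. C1qa was seen without C1qb or C1qc in 319 other kept barcodes, with 498 UMIs in all, and these barcodes had a median of 14074 UMIs, of which 41.0% were from enzyme genes. C1qb or C1qc was seen in only 32 other barcodes. Within the 63 cells the 3 chains were at 538, 480 and 432 CPM, close to each other, and in the other barcodes at 11.2, 1.27 and 1.02 CPM, so the C1qa counts outside did not keep the ratio of the 3 chains. Of these other barcodes, 16 had at least 5 rule UMIs and 2 or more C1q UMIs but failed another condition. Their median depth was 38976 UMIs, 38.8% of their UMIs were from enzyme genes, and 8 of them had no UMI of Fcer1g or Tyrobp.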

How the data were processed

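The authors ran Cell Ranger 7.1.0 on the mm10 build and deposited the filtered matrix of UMI counts for 32285 genes, used here as raw counts. UMIs were summed over the cells of a class and scaled to CPM, with exact Poisson, Clopper-Pearson and conditional binomial 95% intervals (Python 3.11.15, scipy 1.17.1), whose code was tested on simulated data. Genes with a mean of at least 10 CPM over both classes were counted past 2-fold. A sum of 0 was bounded at 3 counts, and a ratio against 0 UMIs by the lower end of its interval. With 1 library, no test was made. Depth was 900 to 11466 UMIs per cell. Doublets were scored with Scrublet (scanpy 1.11.5), which marked 4.91% of kept barcodes and 4 of the 63 cells, and none was removed. Named were the rule genes, the listed genes and the 10 with the most UMIs. Also named were genes most raised or lowered by the interval bound nearest 1. These were 20 against other barcodes, of at least 100 CPM in the 63 cells, and 10 per side otherwise. Further genes of the C1q and MHC class II combinations were picked after their values were seen. The cells and lists were chosen with earlier results of these data known. The Scap-deleted sample was not analysed here. Some listed genes are not reported here.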

Additional observations from a re-analysis of the deposited data

How the results depend on the processing

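No paired analysis was possible because there was 1 library. The share of 0.576% became 0.438% with at least 10 rule UMIs and 0.183% (20 cells) without Lyz2 in the rule. That rule also moved the share of cells with 2 or more C1q UMIs from 27.0% to 75% and with 2 or more resident UMIs from 11.1% to 35%, since it dropped most C1q-low cells. MHC class II in cells with 0 resident UMIs (10181 CPM) became 9650 CPM below 10000 UMIs, 10800 CPM above 1500 UMIs, 11000 CPM with at least 10 rule UMIs, 16800 CPM without Lyz2, 10800 CPM without Scrublet doublets, 10700 CPM without 13 cells with 10 or more collagen UMIs, 8450 CPM as a mean over cells, and 10800 CPM without the 3 cells with over 1000 enzyme UMIs, an alternative chosen after seeing the data. At a mean of at least 50 CPM, which tests fewer genes, counts higher and lower were 803 and 569 against other barcodes, 642 and 450 against B cells, and 867 and 662 against dendritic cells, so that higher genes outnumbered lower ones against other barcodes too. Against B cells the order of higher (1564) and lower (1774) genes also turned below 10000 UMIs (1773 and 1741) and as a mean over cells (2060 and 1790). Of 100 summary values recomputed, 82 moved by less than their counting interval (counts of genes, by less than 1.5 times), and 18 moved further. The absence of cells with both a resident UMI and at least 10 MHC class II UMIs could not change, since each alternative kept or dropped cells of the same 63. Of 168 other values, mostly levels of single genes, 32 moved. Without Lyz2 in the rule, Plac8 went from 946 to 96.5 CPM and Il1b from 606 to 301 CPM, while Apoe rose from 2340 to 4800 CPM, Csf1r from 364 to 627 CPM, Adgre1 from 184 to 362 CPM, Maf from 1500 to 3400 CPM, Lyve1 from 121 to 301 CPM, Retnla from 1080 to 2030 CPM, Ccl24 from 825 to 1280 CPM and Ctsb from 956 to 1520 CPM. As a mean over cells, Retnla was 710 CPM. With 63 cells, a gene at 0 may reach 14.6 CPM.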
